A study of Sus scrofa with 6 samples.

Results

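The DDX and DHX genes encode RNA helicases, and their expression was compared between pig epiblast stem cells and pig fibroblasts. Members were taken by name alone: rows whose Ensembl pig gene symbol is DDX or DHX followed by a number, with DHX58 left out, and no measured value entered the rule. It found 45 genes of the 20131 in the table, 30 of them DDX and 15 DHX. The first group, pgEpiSC, held 4 libraries of pre-gastrulation epiblast stem cells from epiblast at embryonic day 10. The second, pEF, held 2 libraries of embryonic fibroblasts from fetuses at embryonic day 30. No genotype, treatment, strain or sex is given in the sources used here for either group, nor whether the libraries of a group came from separate cell lines, so p-values measure only the spread between these samples. Both groups were measured by strand-specific sequencing of total RNA after rRNA depletion, and the values are TPM (transcripts per 1000000, a unit corrected for transcript length), which allow levels of different genes to be set side by side.

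RNA helicases bind RNA and use ATP to unwind short duplexes, to strip proteins from RNA or to clamp onto it. DEAD-box proteins (DDX) are named after the residues Asp-Glu-Ala-Asp of their ATPase core and mostly separate strands locally, whereas DEAH-box proteins (DHX) move along a strand and many are switched on by partners with a G-patch motif. Between them they drive ribosome assembly in the nucleolus, most remodelling steps of the spliceosome, mRNA export, translation of structured messages and mRNA decay. Stem cells that divide quickly are known for large nucleoli and a high demand for ribosomes.

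The listed genes summed to very different totals, from 157288 to 320206 TPM in pgEpiSC and 93556 and 145611 TPM in pEF. Each library was therefore divided by a median-ratio factor, which was 0.704, 2.17, 1.63 and 0.729 for pgEpiSC 1 to 4 and 0.576 and 0.954 for pEF 1 and 2, and the result is called scaled TPM below. Multiplying by the factor gives back the deposited value. On this scale the median gene had a log2 fold of -0.05, against 0.48 for the values as deposited. Increases made up 43.2% of calls, against 65.6%. Factors of this kind bring the median fold near 0 by design, so these values are no check of the scaling. The labels were checked on marker lists. The 9 epiblast markers in the table summed to between 498 and 859 scaled TPM in pgEpiSC and to at most 0.795 in pEF, where LIN28A, PRDM14 and TRIM71 were listed at 0. The 10 fibroblast markers summed to between 33.8 and 54.02 in pgEpiSC and 2831 and 3276 in pEF. Endothelial and blood markers summed to at most 0.315 and 0.952 in any library. Trophectoderm markers reached 6.52 in pgEpiSC and 1.72 in pEF, and hypoblast markers 14.6 and 31.04. Of the hypoblast markers 3 reached 1 scaled TPM in at least 2 libraries. FOXA2 and CER1 did so through pgEpiSC alone and were higher there. PDGFRA, which is also on the fibroblast list, did so through pEF alone and was lower in pgEpiSC. This selection set the direction of all 3.

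More helicases were higher than lower in the stem cells. The nucleolar enzymes DDX21 and DDX18 and the export helicase DDX39A rose most, each by a log2 fold of 1.81 or more. DDX59 was the single tested member called lower. A gene was tested if it reached 1 scaled TPM in at least 2 libraries, and was called where limma gave a p below 0.05 after Benjamini-Hochberg adjustment over all 9867 tested genes. Of the 42 helicases that passed this filter, 14 were called higher, against 25.9% of all genes, and 1 was called lower, against 34.1%. Called by at least 1 log2 unit were 9 higher and 1 lower, against 14.6% and 21.6% of all genes. The median log2 fold of the 42 was 0.36, beside -0.05 for all genes. The fold was above 0 for 35 of them, against 48.0% of all genes. For 26 the 4 pgEpiSC libraries all lay above both pEF libraries (32.6% of all genes) and for 2 they all lay below (39.1%). In bulk samples such as these, fewer cells of a type and less RNA per cell cannot be told apart.

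DDX11, DDX31, DHX16 and DHX34 passed the filter through pgEpiSC alone, so their direction was set by it. Without these 4, the remaining 38 gave 11 higher and 1 lower call, beside 21.3% and 29.7% of the 7661 genes that reached 1 scaled TPM in both groups. With the values as deposited 11 helicases were called higher and 0 lower (0 also at an unadjusted p below 0.05 in limma), beside 18.0% and 9.43% of all genes. With quantile normalization there were 27 and 1 (34.9% and 28.5% of all genes). Without pEF replicate 1 the calls numbered 8 higher and 1 lower, beside 18.5% and 19.6% of all genes, and without pEF replicate 2 they numbered 9 and 1, beside 20.2% and 19.9%. The share called higher was then near that of all genes. DDX18, DDX21, DDX39A, DDX46 and DDX47 were called higher under every alternative that tested them. Proliferation genes moved in parallel: 11 of 12 tested were called higher, beside 25.9% of all genes. The largest folds were those of CCNB1, a mitotic cyclin (3.01 ± 0.37 SE), the topoisomerase TOP2A (2.66 ± 0.37) and MCM2, a subunit of the replicative helicase (2.42 ± 0.26), and the summed level of the list was 240.3 to 323 scaled TPM in pgEpiSC and 56.1 and 75.9 in pEF. Their part in the helicase result was not tested.

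**Figure D1:**
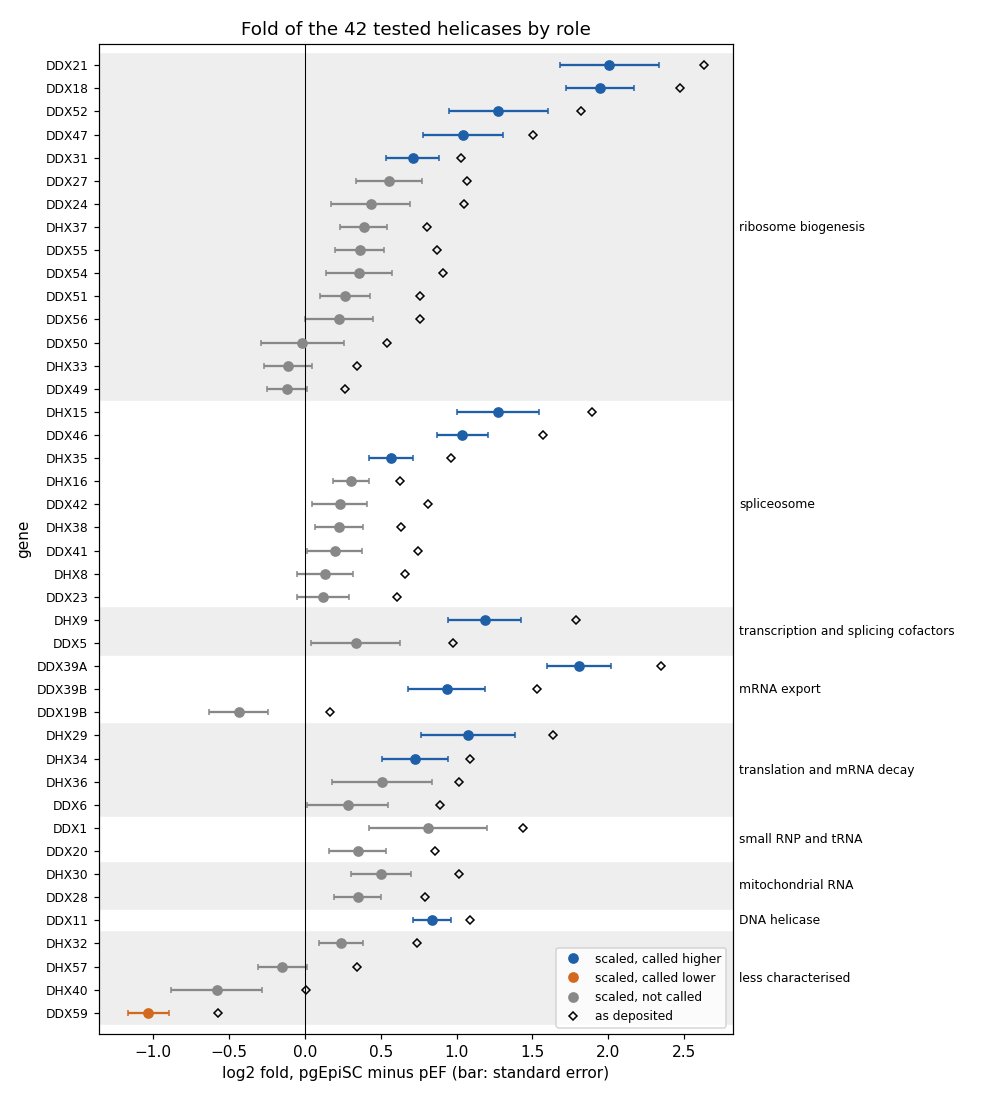
Log2 fold of pgEpiSC over pEF (x axis) for the 42 tested helicases, grouped by role; filled points are scaled values with their standard error, colour gives the limma call, and open diamonds are values as deposited. DDX21 stands at 2.01 and DDX59 at -1.03 on the scaled axis, and the deposited values lie to the right.

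The helicases together held 0.325, 0.392, 0.413 and 0.315% of the listed TPM in pgEpiSC 1 to 4 and 0.2397 and 0.239% in pEF 1 and 2, a share that does not depend on scaling. The stem cell libraries thus all lay above both fibroblast libraries. Most of the RNA belonged to few members. Helicases that matched no row, DDX3X and DDX17 among them, are not part of these sums and ranks. DDX5, DDX21, DDX1, DHX15 and DHX9 made up 59.4% of the helicase sum in pgEpiSC on average, and DDX5, DDX1, DDX21, DDX6 and DHX15 made up 54.8% in pEF. DDX5 led in both, at 23.9 ± 1.97% (SD, n = 4) of the sum in pgEpiSC and 31.7 ± 1.49% (SD, n = 2) in pEF. DDX21 held 14.9 ± 2.12% in pgEpiSC and 5.97 ± 0.412% in pEF. DDX18 moved from rank 20 in pEF to rank 9 in pgEpiSC.

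**Figure D2:**
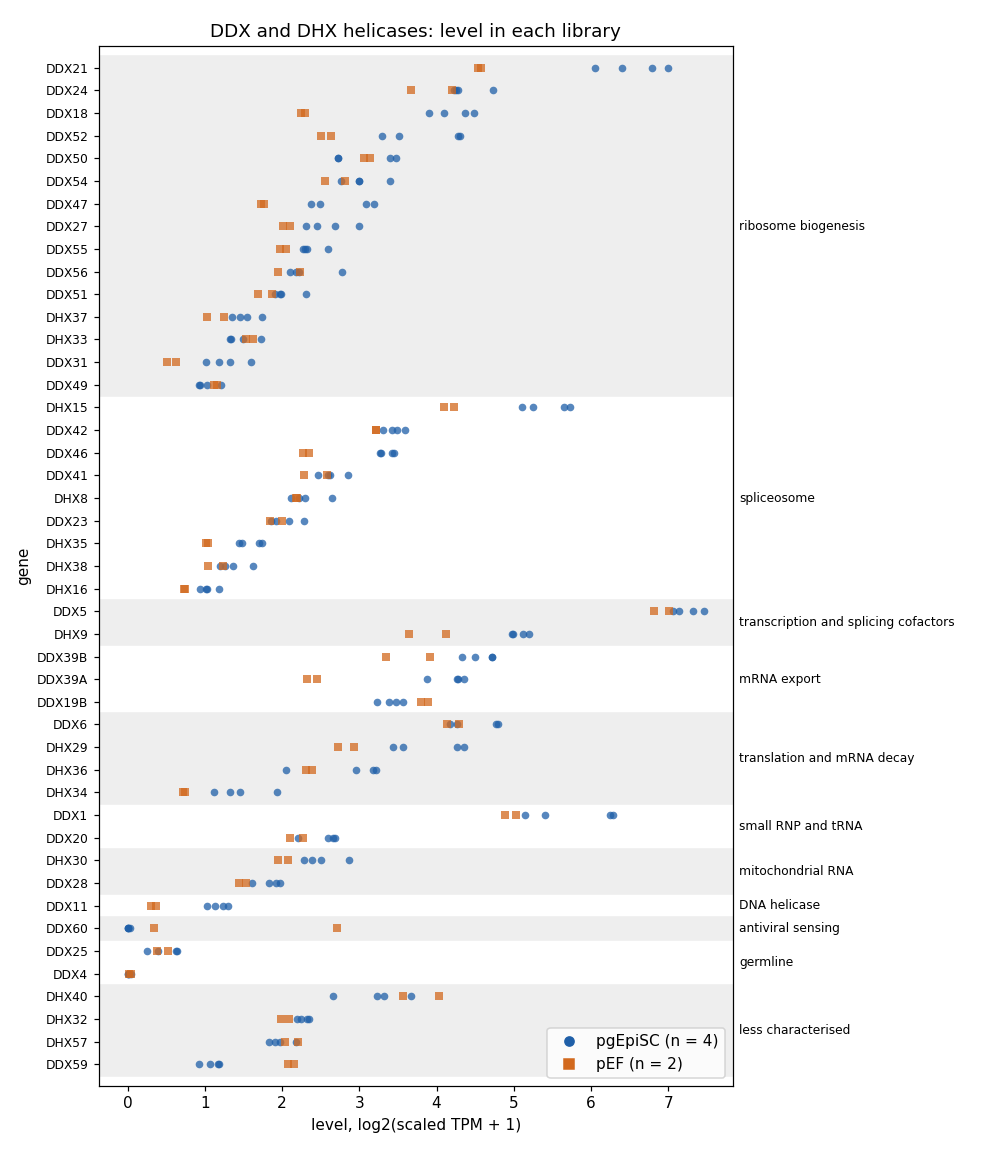
Level of each of the 45 helicases in log2(scaled TPM + 1) (x axis), by role; circles are the 4 pgEpiSC libraries and squares the 2 pEF libraries. DDX5 is the most abundant member in both groups, the 4 circles of DDX21 and DDX18 lie well to the right of the squares, and DDX60 is near 0 in pgEpiSC.

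The ribosome biogenesis helicases unwind pre-rRNA and release small nucleolar RNAs during assembly of the ribosomal subunits. All 15 in the table were tested and 5 were called, each of them higher: DDX21, DDX18, DDX52, DDX47 and DDX31. That share is near the 25.9% of all genes called higher, and DDX31 is among the members that passed the filter through pgEpiSC alone. The median log2 fold of the 15 was 0.39.

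DDX21 couples transcription and processing of rRNA. It stood at 127, 83.6, 65.3 and 109.7 scaled TPM in pgEpiSC 1 to 4 and at 22.1 and 22.8 in pEF 1 and 2. The lowest stem cell library was far above both fibroblast libraries, and the log2 fold was 2.01 ± 0.33 (SE; limma, adjusted p = 0.00112). DDX18, needed for assembly of the large subunit, stood at 21.4, 16.2, 13.9 and 19.7 against 3.73 and 3.898 scaled TPM. Its groups were also well apart, with a log2 fold of 1.95 ± 0.23 (limma, adjusted p = 0.000187).

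DDX52 and DDX47 act on early precursors of the small subunit. DDX52 was at 18.7, 8.83, 10.4 and 18.5 scaled TPM in pgEpiSC and 5.23 and 4.69 in pEF. Its pgEpiSC libraries 1 and 4 were nearly alike and well above libraries 2 and 3, yet all 4 exceeded pEF; the fold was 1.27 ± 0.33 (limma, adjusted p = 0.0103), and without pEF replicate 2 it was 1.21 and not called (adjusted p = 0.0628). DDX47 had the same order of libraries, at 8.17, 4.17, 4.64 and 7.47 against 2.403 and 2.3001 scaled TPM, with a fold of 1.04 ± 0.26 (limma, adjusted p = 0.00965). DDX31, which acts on the large subunit, was low, at 1.28, 2.02, 1.51 and 1.02 against 0.4299 and 0.543 scaled TPM. Its fold of 0.71 ± 0.17 (limma, adjusted p = 0.007999) was not called with values as deposited (1.03, adjusted p = 0.103), after rescaling to a total of 1000000 (1.16, adjusted p = 0.0702) or without pEF replicate 1 (0.65, adjusted p = 0.0729).

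The other 10 ribosome biogenesis helicases were not called. DDX27, DDX24, DHX37, DDX55, DDX54, DDX51 and DDX56 had folds from 0.55 down to 0.23, and DDX50, DHX33 and DDX49 had folds of -0.02, -0.11 and -0.12. The last 3 had positive folds with values as deposited, at 0.54, 0.35 and 0.26. DDX24, an abundant nucleolar helicase, was at 18.1, 25.5, 17.7 and 18.4 scaled TPM in pgEpiSC and 17.5 and 11.7 in pEF, so that pEF 1 nearly reached the stem cell libraries (0.43 ± 0.26; limma, adjusted p = 0.181). DDX27 just missed the threshold (0.55 ± 0.22; limma, adjusted p = 0.0548), was called without pgEpiSC replicate 3 (0.65, adjusted p = 0.0353) and had pgEpiSC libraries that all exceeded pEF.

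DDX50 is the paralog of DDX21 and its neighbour in the RefSeq annotation of Sscrofa11.1. It was at 9.53, 5.61, 5.59 and 10.1 scaled TPM in pgEpiSC and 7.78 and 7.35 in pEF, with both fibroblast libraries inside the range of the stem cells. The 2 genes were compared by their ratio within each library, which no scaling can alter. DDX21 exceeded DDX50 by a ratio of 13.3, 14.9, 11.7 and 10.8 in pgEpiSC 1 to 4 and of 2.84 and 3.11 in pEF 1 and 2. The log2 ratio differed by 2.08 between the groups (3.65 ± 0.204 against 1.57 ± 0.0904, SD). Of the 3 pairs of related helicases compared in this way each gave p = 0.0667 (exact two-sided permutation test, n = 4 and 2; 0.0667 after Benjamini-Hochberg adjustment over the 3), the smallest that 15 splits allow.

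**Figure D3:**
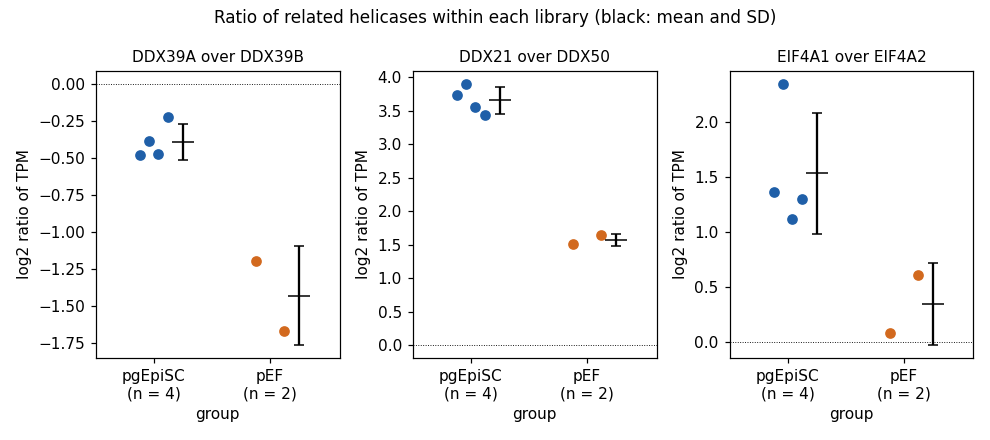
Log2 ratio of TPM of 2 related helicases within each library (y axis) in pgEpiSC (4 points) and pEF (2 points); black marks are the mean and SD. In each of the 3 pairs all pgEpiSC points lie above both pEF points, and DDX21 over DDX50 is farthest apart, with means of 3.65 and 1.57.

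Other nucleolar factors of ribosome assembly moved in the same direction. Of 48 tested genes of that list 36 were called higher and 1 lower, beside 25.9% and 34.1% of all genes. The median fold was 1.03 (-0.05 for all genes). NOL6, among those called higher, passed the filter through pgEpiSC alone, which set its direction. The 47 that reached 1 scaled TPM in both groups gave 35 higher and 1 lower call, beside 21.3% and 29.7% of all such genes. The largest increases were those of the nucleolar GTPase GNL3 (2.54 ± 0.38; limma, adjusted p = 0.000677), the histone and ribosome chaperone NPM1 (2.51 ± 0.44; adjusted p = 0.00161) and MDN1, the ATPase that strips factors from the large subunit (2.22 ± 0.27; adjusted p = 0.000235). Counts were 24 higher and 1 lower without pEF replicate 1, and likewise without pEF replicate 2, where 18.5% and 20.2% of all genes were called higher. With values as deposited they were 27 of 49 tested and 0, beside 18.0% and 9.43% of all genes. The gene that fell was NOP16.

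Spliceosome helicases drive the spliceosome from assembly through catalysis to release. All 9 were tested and 3 were called, each of them higher, a share near the 25.9% of all genes, with a median fold of 0.23. DHX15, which takes spent spliceosomes apart, was the most abundant, at 49.1, 33.5, 37.1 and 51.8 scaled TPM in pgEpiSC and 17.7 and 16.04 in pEF. Its stem cell libraries were all clear of the fibroblasts (1.28 ± 0.27; limma, adjusted p = 0.00416), though without pEF replicate 2 the call was missed (1.21, adjusted p = 0.0569). DDX46, which helps the U2 particle find the branch site, was among the steadiest members on the scaled values. It was at 9.92, 8.68, 8.61 and 9.71 against 3.83 and 4.12 scaled TPM (1.04 ± 0.17, limma, adjusted p = 0.00109). DHX35, found in the catalytic spliceosome, was at 1.799, 2.26, 2.35 and 1.72 against 1.06 and 1.02 scaled TPM. Its fold of 0.57 ± 0.14 (limma, adjusted p = 0.00954) was not called with values as deposited, after rescaling, or without pEF replicate 1 or 2 (0.58 and 0.55, adjusted p = 0.0623 and 0.0702).

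The other 6 spliceosome helicases were not called: DHX16, DDX42, DHX38, DDX41, DHX8 and DDX23 had folds between 0.12 and 0.30. DDX42, which binds the U2 particle, was at 9.69, 11.02, 8.86 and 10.2 scaled TPM in pgEpiSC and 8.3004 and 8.34 in pEF, so that the lowest stem cell library was only just above pEF. DDX23, which frees the 5′ splice site from U1, was at 3.25, 3.88, 2.64 and 2.803 against 2.59 and 3.01 scaled TPM, with overlapping groups. Of 13 tested G-patch cofactors 1 was called higher (GPATCH4, which passed the filter through pgEpiSC alone; 0.999 ± 0.20; limma, adjusted p = 0.00339) and 3 lower, beside 25.9% and 34.1% of all genes, led by the splicing regulator RBM5 (-1.01 ± 0.19; adjusted p = 0.00209) and ZGPAT (-0.85 ± 0.20; adjusted p = 0.00711). With values as deposited 0 of the 13 were called in limma (1 higher and 0 lower at an unadjusted p below 0.05).

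DDX5 and DHX9 work with transcription factors, splicing factors and small RNA processing. DDX5 was at 158, 133, 139.7 and 175 scaled TPM in pgEpiSC and 127 and 112 in pEF. The groups did not overlap but were close, and the fold of 0.33 ± 0.29 was not called (limma, adjusted p = 0.349). DHX9, also called RNA helicase A, was at 35.8, 33.8, 30.7 and 30.4 against 11.5 and 16.5 scaled TPM. On this scale the stem cell libraries differed little from one another and lay far above pEF (1.19 ± 0.24, limma, adjusted p = 0.00329). As deposited they differed more, at 25.2, 73.6, 50.0 and 22.2 TPM in pgEpiSC 1 to 4. Without pEF replicate 1, the lower fibroblast library, the fold was 0.94 and not called (adjusted p = 0.0814).

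Among the export helicases, DDX39A and DDX39B are close paralogs that load export factors onto mRNA, and DDX19B strips them off at the nuclear pore. DDX39A was at 18.2, 19.5, 13.7 and 18.4 scaled TPM in pgEpiSC and 4.01 and 4.45 in pEF, groups that were well apart (1.81 ± 0.21; limma, adjusted p = 0.000196). DDX39B was at 25.3, 25.4, 19.1 and 21.5 against 9.16 and 14.1 scaled TPM (0.94 ± 0.25; limma, adjusted p = 0.01301). Its pEF libraries differed, and without pEF replicate 1 the fold was 0.65 and not called (adjusted p = 0.195). DDX39B was the more abundant of the pair in all 6 libraries. DDX39A over DDX39B was 0.717, 0.767, 0.719 and 0.857 in pgEpiSC and 0.438 and 0.316 in pEF, a difference of 1.04 in the log2 ratio (exact permutation p = 0.0667). The 2 sequences are similar, so how the authors' tools shared reads between them could affect each value; that was not tested.

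DDX19B stood on the other side, at 10.1, 10.9, 8.35 and 9.45 scaled TPM in pgEpiSC and 12.97 and 13.9 in pEF. Its pgEpiSC libraries all lay below pEF, but the fold of -0.44 ± 0.19 was not called (limma, adjusted p = 0.081998) and it was 0.17 with values as deposited. Its neighbour and paralog DDX19A was not analysed here. Of 13 tested TREX and export factors 6 were called, each higher (25.9% of all genes), led by THOC1 and THOC3, subunits of the THO complex (1.19 ± 0.28 and 1.10 ± 0.20; limma, adjusted p = 0.00723 and 0.00171), and ALYREF, an export adaptor (0.90 ± 0.29; adjusted p = 0.0294). Without pEF replicate 1 or 2 the count was 2 each time, a share below the 18.5% and 20.2% of all genes called higher there, and ALYREF was not called then (0.82 and 0.97, adjusted p = 0.19 and 0.127) or without pgEpiSC replicate 1 (0.79, adjusted p = 0.0712).

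Of the 4 helicases of translation and mRNA decay, 2 were called higher, beside 25.9% of all genes. DHX34, among these, passed the filter through pgEpiSC alone, which set its direction. DHX29, which helps the small ribosomal subunit scan through structured leaders, was at 18.2, 9.801, 10.8 and 19.5 scaled TPM in pgEpiSC and 6.5999 and 5.64 in pEF. The stem cell libraries split into a higher and a lower pair, all above the fibroblasts (1.07 ± 0.31; limma, adjusted p = 0.0171). The call was lost without pEF replicate 1 (1.17, adjusted p = 0.062) or 2 (0.98, adjusted p = 0.105). DHX34, a factor of nonsense-mediated decay, was at 1.51, 2.84, 1.75 and 1.17 against 0.648 and 0.6801 scaled TPM (0.73 ± 0.22; limma, adjusted p = 0.0201). It was not called with values as deposited (1.09, adjusted p = 0.112), after rescaling, with no filter (adjusted p = 0.0577) or without pEF replicate 1 or 2 (0.71 and 0.74, adjusted p = 0.0932 and 0.08001).

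DDX6, the decapping activator of P-bodies, was the most abundant of this role, at 26.7, 18.3, 16.98 and 26.3 scaled TPM in pgEpiSC and 16.6 and 18.6 in pEF. The groups overlapped and the fold of 0.28 ± 0.27 was not called (limma, adjusted p = 0.382). DHX36, which unwinds G-quadruplexes, was at 8.09, 3.14, 6.79 and 8.31 against 4.21 and 3.94 scaled TPM. Library pgEpiSC 2 lay below both pEF libraries while the others lay above; the fold was 0.51 ± 0.33 (limma, adjusted p = 0.211), and without pgEpiSC replicate 2 it was 0.78 and called (adjusted p = 0.00619). Among 9 tested DDX6 partners 3 were called higher and 1 lower (25.9% and 34.1% of all genes). DCP2, the decapping enzyme, and the deadenylase scaffold CNOT1 rose (0.84 ± 0.19 and 0.81 ± 0.19; limma, adjusted p = 0.00611 and 0.00722) and the exonuclease XRN1 fell (-0.67 ± 0.18; adjusted p = 0.0123). The call of DCP2 was lost without pEF replicate 2 (0.64) and those of CNOT1 and XRN1 without pEF replicate 1 (0.67 and -0.55). With values as deposited 0 of the partners were called in limma (2 higher and 0 lower at an unadjusted p below 0.05).

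DDX1, a subunit of the tRNA ligase complex, was the most uneven of the abundant members within pgEpiSC, at 75.2, 34.3, 41.2 and 77.2 scaled TPM, against 31.7 and 28.6 in pEF. On this scale libraries 1 and 4 were far above the fibroblasts and libraries 2 and 3 only a little. As deposited, libraries 1 and 4 were the lower ones, at 53.0, 74.7, 67.1 and 56.3 TPM in pgEpiSC 1 to 4 and 18.2 and 27.3 in pEF. On the scaled values the fold of 0.81 ± 0.39 was not called (limma, adjusted p = 0.104). It was called with values as deposited (1.44, adjusted p = 0.0187), after rescaling (0.67, adjusted p = 0.0362), with quantile normalization (0.92, adjusted p = 0.00783) and without pgEpiSC replicate 2 (1.02, adjusted p = 0.0418). Of the 5 other genes of the ligase complex 0 were called in limma (0 also at an unadjusted p below 0.05; 1 higher with values as deposited).

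DDX20, or Gemin3, belongs to the SMN complex that builds spliceosomal particles. It was at 5.32, 5.43, 3.62 and 5.02 scaled TPM in pgEpiSC and 3.31 and 3.82 in pEF, with pgEpiSC 3 between the fibroblast libraries (0.35 ± 0.19; limma, adjusted p = 0.146; 0.46 and adjusted p = 0.0477 without pgEpiSC replicate 3). Of 5 other tested SMN complex genes 3 were called higher (25.9% of all genes). GEMIN5, which recognises the small nuclear RNA, had a fold of 1.14 ± 0.17 (limma, adjusted p = 0.000791). GEMIN6 and GEMIN4 had folds of 1.23 ± 0.36 and 0.70 ± 0.21 (adjusted p = 0.0186 and 0.0208), and both calls were lost without pEF replicate 1 or 2 (1.16 and 1.31 for GEMIN6, 0.64 and 0.76 for GEMIN4).

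The mitochondrial helicases were not called, although in both the pgEpiSC libraries all exceeded pEF. DHX30, of the mitochondrial RNA granule, was at 4.25, 6.26, 4.69 and 3.88 scaled TPM in pgEpiSC and 2.85 and 3.21 in pEF (0.50 ± 0.20; limma, adjusted p = 0.0554). DDX28, which serves assembly of the mitochondrial large subunit, was at 2.801, 2.92, 2.05 and 2.55 against 1.89 and 1.71 scaled TPM (0.35 ± 0.15; limma, adjusted p = 0.0821; 0.42 and adjusted p = 0.0421 without pgEpiSC replicate 3). Of 9 tested granule genes 2 were called higher and 1 lower (25.9% and 34.1% of all genes). LRPPRC, which stabilises mitochondrial mRNA, rose most (2.33 ± 0.36; limma, adjusted p = 0.000846), and TRUB2, a pseudouridine synthase, fell (-0.95 ± 0.15; adjusted p = 0.00105). RCC1L, which passed the filter through pgEpiSC alone, had a fold of 0.41 ± 0.14 (adjusted p = 0.0318) that was not called without pgEpiSC replicate 1 (0.43) or either pEF library (0.41 each).

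DDX11 differs from the rest in being a DNA helicase, with a part in sister chromatid cohesion. It was at 1.197, 1.35, 1.47 and 1.03 scaled TPM in pgEpiSC and 0.236 and 0.292 in pEF. All 4 stem cell libraries were well clear of the fibroblasts (0.84 ± 0.12; limma, adjusted p = 0.000689), at levels near the filter. With values as deposited the fold was 1.09 and just missed the threshold (adjusted p = 0.05501).

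Of 4 less characterised helicases DDX59, which has been linked to facial and limb development, fell. It was at 1.26, 1.101, 0.903 and 1.25 scaled TPM in pgEpiSC and 3.47 and 3.23 in pEF, with narrow groups far apart (-1.03 ± 0.13; limma, adjusted p = 0.000342). The call was kept with any single library left out, but as deposited the fold was -0.58 and not called (adjusted p = 0.409). DHX40 was at 8.96, 5.29, 8.39 and 11.8 against 15.3 and 10.9 scaled TPM. Library pgEpiSC 4 exceeded pEF 2, so the groups overlapped, and the fold of -0.58 ± 0.30 was not called (limma, adjusted p = 0.126; 0.01 with values as deposited). DHX32 and DHX57 were not called, at 0.24 ± 0.14 and -0.15 ± 0.16.

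The remaining 3 members did not pass the filter. DDX60, an interferon-induced helicase of the antiviral response, was at 0.00195, 0.00242, 0.00303 and 0.0246 scaled TPM in pgEpiSC, 5.58 in pEF 1 and 0.262 in pEF 2. Both fibroblast libraries were above all stem cell libraries, and the fibroblast libraries themselves were far apart. The germline helicases DDX4, the vasa homologue that marks germ cells, and DDX25, known from testis, were at no more than 0.0357 and 0.565 scaled TPM in any library, with overlapping groups.

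Related antiviral helicases outside the rule showed the same gap within pEF. RIGI, the cytoplasmic sensor of viral RNA once named DDX58, was at 1.68, 1.06, 0.853 and 1.04 scaled TPM in pgEpiSC, 49.6 in pEF 1 and 4.68 in pEF 2, and fell (-2.99 ± 0.71; limma, adjusted p = 0.00725). Its fold was -1.41 without pEF replicate 1 and -4.57 without pEF replicate 2, both called. DHX58, a regulator of that sensor, was at 0.277, 0.491, 0.415 and 0.281 against 15.4 and 1.86 scaled TPM (-2.33 ± 0.56; limma, adjusted p = 0.0078). It passed the filter through pEF alone, which set its direction, and did not pass without pEF replicate 1 or 2. IFIH1, the sensor of long duplex RNA, was at no more than 0.131 in pgEpiSC and at 7.14 and 0.765 in pEF 1 and 2, and did not pass the filter. Of 23 tested genes of the interferon response, 16 passed the filter through pEF alone, which set their direction. The 7 that reached 1 scaled TPM in both groups were all called lower in pgEpiSC, beside 29.7% of all such genes, and the whole list summed to between 19.2 and 22.6 scaled TPM there and to 148 and 1015 in pEF. Without pEF replicate 1 only 7 of the list were tested and 4 were called lower; without pEF replicate 2, 6 of 7 were. The largest folds were those of IFIT1, a binder of foreign RNA (-5.36 ± 0.87), IFI44L (-5.02 ± 0.58) and the antiviral GTPase MX1 (-4.71 ± 0.66), of which MX1 reached 1 scaled TPM in both groups. How far an interferon response in pEF 1 accounts for the level of DDX60 was not tested.

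RNA helicases that carry other names were mixed. Of 17 tested, which include RIGI and DHX58, 4 were called higher and 4 lower (25.9% and 34.1% of all genes). With pEF replicate 1 or 2 left out fewer of them were called higher, as was so among all genes. The median fold was then 0.24 or 0.31 (0.27 with all libraries). SUPV3L1, called higher, passed the filter through pgEpiSC alone, and DHX58, called lower, through pEF alone, which set their direction. The 15 that reached 1 scaled TPM in both groups gave 3 higher and 3 lower calls, beside 21.3% and 29.7% of all such genes. MOV10, a helicase of small RNA silencing, was among the latter, at 1.37, 1.898, 1.17 and 0.867 scaled TPM in pgEpiSC and 6.899 and 4.92 in pEF (-1.57 ± 0.21; limma, adjusted p = 0.000377; -1.02 and adjusted p = 0.173 with values as deposited). EIF4A1, the translation initiation factor that founded the DEAD-box family, was more abundant than any DDX or DHX member, at 386, 302, 239.98 and 379 against 153 and 148 scaled TPM (1.09 ± 0.34; limma, adjusted p = 0.0242). That call was lost without pgEpiSC replicate 1 or 4 (1.0002 and 1.0086, adjusted p = 0.0668 and 0.0602) and without pEF replicate 1 or 2 (1.11 and 1.06, adjusted p = 0.142 and 0.158). Its paralog EIF4A2 was at 150.05, 59.6, 111 and 154 against 145 and 97.2 scaled TPM, with overlapping groups (-0.09; limma, adjusted p = 0.869). EIF4A1 exceeded EIF4A2 by a ratio of 2.57, 5.07, 2.16 and 2.46 in pgEpiSC and 1.06 and 1.52 in pEF, a difference of 1.19 in the log2 ratio (exact permutation p = 0.0667).

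Within pgEpiSC the libraries were not interchangeable. The coefficient of variation of scaled TPM over the 4 libraries had a median of 18.4% among the 42 tested helicases. It was lowest for DHX32 (6.31%), DDX46 (7.37%) and DHX9 (7.91%) and highest for DHX34 (39.7%) and DDX1 (39.3%). This order depends on the scale. As deposited DDX1 was the steadier of DDX1 and DHX9, at 62.8 ± 9.98 TPM (SD, n = 4) against 42.7 ± 24.0 TPM. For 15 of the 42, among them DDX1, DDX21, DDX47, DDX52, DHX15 and DHX29, libraries 1 and 4 both lay above libraries 2 and 3, which was so for 34.3% of all tested genes. For 6, among them DDX31, DHX34 and DHX35, the reverse held (21.7% of all genes). With values as deposited, libraries 1 and 4 lay below libraries 2 and 3 for each of DDX1, DDX21, DDX47, DDX52, DHX15 and DHX29. DDX21, for example, was at 89.3, 182, 106 and 80.1 TPM as deposited in pgEpiSC 1 to 4. Libraries 1 and 4 also had the smaller scaling factors, whose part in the pattern of the scaled values was not tested. With libraries 2 and 3 left out 21 helicases were called higher and 2 lower (32.4% and 36.5% of all genes). With libraries 1 and 4 left out there were 15 and 2 (22.3% and 32.4%). Both alternatives were chosen after seeing the data. DDX1 was then called in the first case (1.31, adjusted p = 0.0015) and DHX40 in the second (-0.86, adjusted p = 0.0425).

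**Figure D4:**
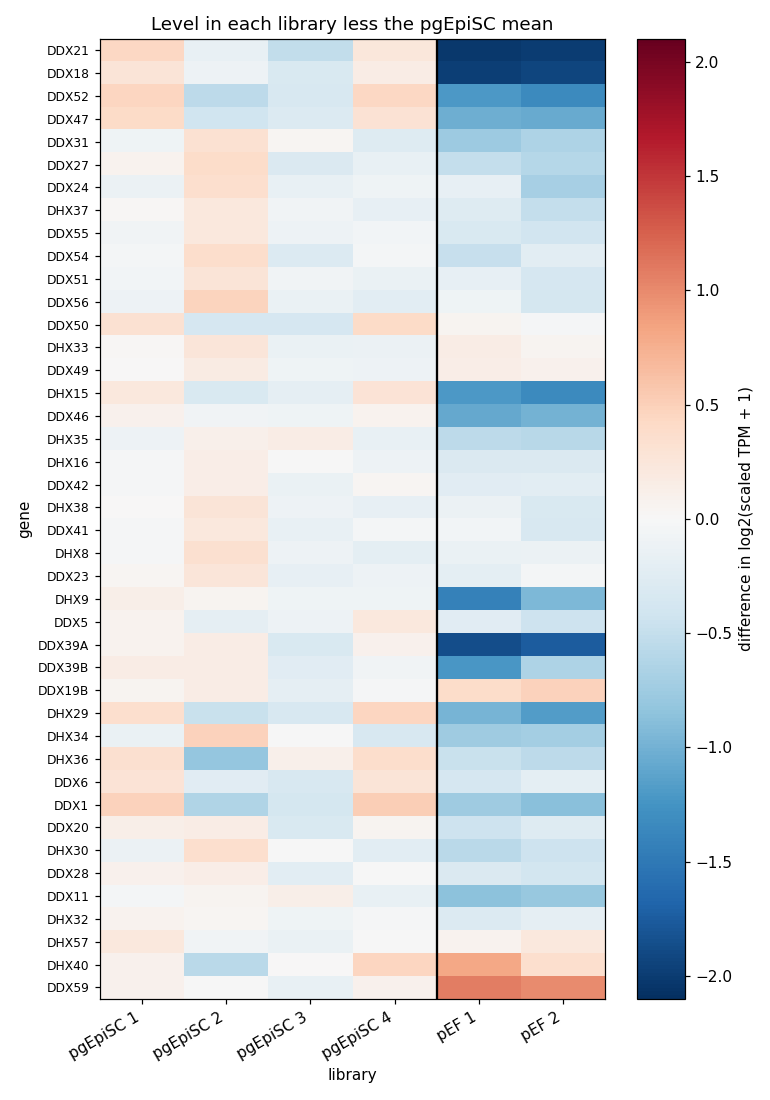
Level of the 42 tested helicases in each library less the mean of the 4 pgEpiSC libraries, in log2(scaled TPM + 1); rows are genes by role and fold, columns are libraries, blue is lower and red higher. DDX21, DDX18 and DDX39A are the darkest blue in both pEF libraries, DDX59 is red there, and DDX1, DDX52 and DHX29 differ between pgEpiSC 1 and 4 and pgEpiSC 2 and 3.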

How the data were processed

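The authors deposited TPM for each gene and library, 1 column per library, per the file headers; the submitters' processing notes list kallisto 0.44.0 and STAR 2.6.0c without a role. Which build and annotation were used is not given in the sources used here. Depth per library is unknown, since TPM keeps none; the labels give an average of 126.01 M high-quality 150-bp reads. Symbols came from a gene name table (14062 of 20132 rows, 69.8%); 2 rows that shared a symbol were summed. Of 55 helicase symbols sorted by role, 10 matched no row, DDX3X, DDX17 and DDX10 among them, and were not analysed here.

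Library factors were medians of ratios over 14121 genes above 0 in all libraries. Scaled values were fitted in limma 3.58.1 (R 4.3.3) as log2(scaled TPM + 1), which understates the change of low genes, with a variance trend and Benjamini-Hochberg adjustment over 9867 genes at 1 scaled TPM in at least 2 libraries. The fit was tested on simulated data. Of 25 genes raised by 1 log2 unit 48% were recovered, and of 25 lowered by as much 56%, while 10 unchanged genes were called. Far fewer genes were changed in the simulation than were called in the data. The adjustment is stricter in that case, so these figures do not describe the fit of the data. Ratios used an exact permutation test. Python 3.11.15 made the tables. Alternatives were other scalings, pseudocounts, filters and variance models, a replicate block and each library left out. With 1 pEF library left, it is assumed to vary like pgEpiSC. Named within each role were members called by at least 1 log2 unit, the most abundant, and those moving against the rest; others are named for completeness, and of each gene list the 3 called genes with the largest fold. Members and lists were chosen with earlier results of these data known.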

Additional observations from a re-analysis of the deposited data

Results flagged for a closer look

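Among the 4 pgEpiSC libraries a single library stood far from the others for 4 of the 45 helicases examined, where chance alone gives about 1 in 20. Among tested genes it was so for 3 of 42 helicases (7.14%) and 6.36% of all genes, so the helicases' share was near the background. Library pgEpiSC 2 was high for DDX24 (25.5 scaled TPM), DDX55 (5.05) and DDX56 (5.88), all of the ribosome biogenesis group and none of them called between the cell types. Library pgEpiSC 4 was high for DDX60 (0.0246 scaled TPM), a level near 0.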

How the results depend on the processing

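With values as deposited 983 genes in all and 0 helicases were called lower, and the median helicase fold was 0.90 (0.48 for all genes); the folds of DDX19B, DDX49, DDX50, DHX33, DHX40, DHX57 and EIF4A2 turned to 0.17, 0.26, 0.54, 0.35, 0.0093, 0.34 and 0.55. Rescaling to a total of 1000000 gave 2 lower helicases, DDX59 and DDX60 (the latter untested on the main scale), and turned DDX23 to -0.0026. Quantile normalization gave 27 higher helicases, a median of 0.59, and 0.023, 0.19, 0.10 and 0.091 for DDX49, DDX50, DHX33 and DHX57; 55.0% of all calls were then higher. A pseudocount of 5 gave a median of 0.23. Requiring a mean of 5 gave 1077 higher and 1095 lower genes, 9 and 0 helicases and a median of 0.81, with fewer genes tested. Without a variance trend 2 helicases were lower. With each library left out in turn, 1613 to 2639 genes and 8 to 17 helicases were higher and 1709 to 3485 genes were lower; DDX50 ranged from -0.15 to 0.10 (0.02 without pEF replicate 1) and EIF4A2 from -0.38 to 0.20 (0.19 without pEF replicate 1). Without pgEpiSC libraries 2 and 3, or 1 and 4, 2 helicases were lower each time; DDX50 was 0.34 and EIF4A2 0.35 in the first. The cause of these changes was not tested. Replicate numbers are shared by the groups, but same-numbered libraries deviated together only weakly (r = 0.07 and 0.11 over genes). With the replicate number as a block 2136 genes were higher and 2797 lower, with 14 and 2 helicases; DHX33 was 0.027, DHX40 and DDX27 were called, and DHX35 and EIF4A1 were not. Of 15 called helicases 5 were called under all alternatives that tested them. With each library left out the difference in log2 ratio was 0.80 to 1.27 for DDX39A over DDX39B, 2.00 to 2.15 for DDX21 over DDX50 and 0.92 to 1.45 for EIF4A1 over EIF4A2. Unknown read depth limits what can be said of members near 1 TPM.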
